A study of Rattus norvegicus with 24 samples.

Results

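The genes of voltage-gated sodium, potassium and calcium channels, of TRP channels and of acid-sensing channels were examined together in the rat dorsal root ganglion. A probe belonged to this family when its symbol in the platform annotation began as a sodium channel subunit (Scn), potassium channel (Kcn), calcium channel (Cacn), HCN, TRP or acid-sensing channel (Asic) symbol does. This rule, which used no measured value, took 139 probes of 134 genes, out of 13787 named probes of 13336 genes. Total RNA of the lumbar ganglia of Sprague-Dawley rats aged 3 months was hybridised on Illumina bead arrays, 1 rat to an array and 4 rats to a group. The 6 groups were vincristine-morphine, vincristine-oxycodone, vincristine-saline, saline-morphine, saline-oxycodone and saline-saline rats. All rats had first received vincristine or saline for 10 days, by intraperitoneal injection, and then morphine, oxycodone or saline for 5 days. Vincristine, a microtubule poison used against cancer, produces a painful neuropathy, and morphine and oxycodone are agonists of the mu opioid receptor. Rats given saline first are called control rats. The tissue was taken at a single time, after the last behavioural test, so that the values describe a ganglion days after the end of vincristine.

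Ion channels set the excitability of sensory neurons. Sodium channels carry the rising phase of the action potential, and potassium channels bring the membrane back and hold it at rest. Calcium channels admit the calcium that triggers transmitter release, while TRP and acid-sensing channels turn heat, irritants and acid into current. In nociceptors, the neurons that signal pain, Nav1.8 (Scn10a) and Nav1.9 (Scn11a) are sodium channels that resist tetrodotoxin, and TRPV1 (Trpv1) is the receptor of capsaicin. Opioid receptors act on neurons in part by closing calcium channels and opening inward rectifier potassium channels.

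On each array, between 6112 and 6907 of 22517 probes were detected at the cutoff of the study's methods, a detection p of at most 0.05%, and between 32 and 40 of these were channel probes. The labelled tissue was borne out by its markers: 9 of 10 sensory neuron markers on the array and 4 of 4 satellite glia markers were kept, the calcitonin gene Calca being the neuronal exception, whereas 5 of 6 central nervous system markers were not. Skeletal muscle RNA differed between arrays. The mean of 7 kept muscle genes, of 18 listed, lay between 8.38 and 10.73 (log2) on 5 arrays (vincristine-morphine 1 and 3, vincristine-oxycodone 3 and 4 and saline-morphine 4) and between 5.87 and 7.87 on the other 19. All of these 5 arrays came from rats given an opioid. The line between high and other arrays was drawn at a mean of 8, however. The highest of the other 19, at 7.87, was vincristine-saline 2, from a rat without opioid. The columns of the deposited table also ran in 4 sets of 6 neighbours, each with 1 array of every group; the sources used here do not say what the sets are. In such bulk tissue, fewer cells of a type and less RNA per cell cannot be told apart.

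A probe was kept for testing when it was detected on at least 4 of 24 arrays, which 40 channel probes of 39 genes were (28.8% of the family's probes, against 39.9% of all named probes). Kcnc2, a fast-gating potassium channel gene, had 2 kept probes. Of the 40, 30 were detected on all 24 arrays and 10 on 4 to 23 arrays. Among the 99 that were not kept, 96 were detected on no array and 3 on 1 or 2 arrays (Trpv6, Kcnk12 and Cacng3). Many of these lay near rather than at background, since 25 of the 99 had a detection p of at most 0.05 on all 24 arrays, while 36 had it on none.

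Voltage-gated sodium channels were the best represented pore-forming family, with 4 of 8 alpha subunit probes kept (Scn1a, Scn7a, Scn10a and Scn11a), and both Scn3b and Scn4b among 3 beta subunit probes. The probes of Scn9a (Nav1.7), Scn8a (Nav1.6) and Scn2a were not kept. That of Scn8a passed the looser p of 0.05 on all 24 arrays and that of Scn9a on 0. A probe that was not kept does not show that its gene is silent in the ganglion. Of 39 probes for voltage-gated potassium channel alpha subunits, 12 were kept, namely Kcnc1, both Kcnc2 probes, Kcnd1, Kcnd3, Kcng1, Kcnh1, Kcnh2, Kcnh6, Kcnq5, Kcns1 and Kcns3. Potassium channel auxiliary subunits had 6 of 16 probes kept (Kcnab1, Kcnip1, Kcnip2, Kcnip3, Kcnip4 and Kcnmb4). Inward rectifiers had 1 of 14 (Kcnj12), two-pore channels 2 of 11 (Kcnk1 and Kcnk2) and calcium- or sodium-activated channels 1 of 6 (Kcnn4). For calcium channels, 2 of 7 alpha1 probes (Cacna1c and Cacna1h), 2 of 4 alpha2delta probes (Cacna2d1 and Cacna2d3), 2 of 4 beta probes (Cacnb1 and Cacnb3) and 1 of 8 gamma probes (Cacng2) were kept, and the N-type gene Cacna1b was not. TRP channels had 3 of 11 probes kept (Trpa1, Trpv1 and Trpv2), acid-sensing channels 1 of 5 (Asic3) and HCN channels 0 of 2. The cold receptor Trpm8 and the osmosensitive channel Trpv4 were not kept but passed the looser p on all 24 arrays. Trpc4ap, whose symbol meets the rule, is a protein that binds TRPC4 and is no channel itself. It was counted apart from the TRP channels by type. It nonetheless remains among the 139 probes and the 40 kept members in all counts below, 39 without it.

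**Figure D1:**
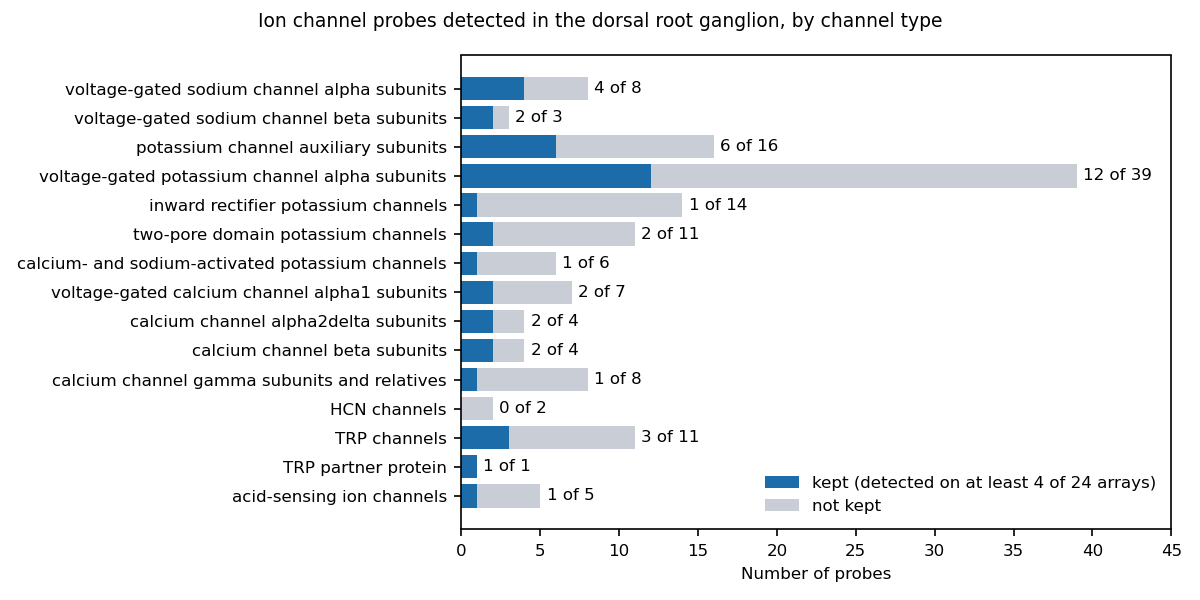
Number of channel probes of each type (horizontal bars), split into probes kept because they were detected on at least 4 of 24 arrays (blue) and probes that were not (grey). Sodium channel alpha subunits had 4 of 8 probes kept, whereas inward rectifiers had 1 of 14 and HCN channels 0 of 2.

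The stretch before the transcription start is shown for 2 members that were detected on every array and recur below, Cacna2d1 (the alpha2delta-1 subunit, the target of gabapentin) and Trpv1. Both are RefSeq sequence of build GRCr8, the 250 bases before the annotated start, read in the direction of the gene, with CG dinucleotides, the sites of DNA methylation in mammals, in capitals. Trpv1 lies at chr10:58349686-58349935 on the plus strand and Cacna2d1 at chr4:20330148-20330397 on the minus strand.
Cacna2d1: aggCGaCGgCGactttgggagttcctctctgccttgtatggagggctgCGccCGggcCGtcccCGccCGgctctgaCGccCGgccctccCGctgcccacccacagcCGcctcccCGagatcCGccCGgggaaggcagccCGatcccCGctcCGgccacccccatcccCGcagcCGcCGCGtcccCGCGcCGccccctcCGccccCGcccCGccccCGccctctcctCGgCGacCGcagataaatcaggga
Trpv1: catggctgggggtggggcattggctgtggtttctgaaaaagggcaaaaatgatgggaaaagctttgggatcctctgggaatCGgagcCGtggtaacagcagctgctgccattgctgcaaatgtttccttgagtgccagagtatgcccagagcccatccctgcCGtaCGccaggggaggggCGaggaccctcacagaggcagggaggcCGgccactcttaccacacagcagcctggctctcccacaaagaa
The Cacna2d1 stretch held 32 CG dinucleotides and the Trpv1 stretch 6. Such a window was matched for 27 of the 39 kept genes, with a median of 11 CG, and for 68 of 95 genes without a kept probe, with a median of 9.5 CG. At least 1 CG stood in all 27 windows of kept genes, in 98.5% of those of genes not kept and in 92.2% of all 33469 windows of the table, whose median was 5. Both medians of channel genes were thus above that of the table, and they were close to each other.

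No channel gene passed the test in any comparison. In the limma fit to 7043 kept probes, with p-values adjusted by Benjamini and Hochberg's method over all of them, 0 of 40 members passed an adjusted p of 0.05 between vincristine and control rats (0.199% of all kept probes passed), and 0 of 40 between opioid and saline rats (0.114% of all). Between vincristine-saline and saline-saline rats, 0 members passed (0.0284% of all), and in the test of any difference among 6 groups again 0 (0.142% of all). In the 6 remaining comparisons, which were morphine with oxycodone, morphine with saline and oxycodone with saline, each in vincristine and in control rats, 0 members passed and so did 0% of all kept probes. The same held for the interaction, which asks whether the difference of morphine and oxycodone depended on vincristine (0 members, 0% of all). At an unadjusted p below 0.05, 4 of 400 member tests passed (1%), against 2.32% of all tests; none of the 4 was in the vincristine comparison, where 2.77% of all kept probes passed. With the set of 6 neighbouring arrays as a block in the model, 0 members again passed the adjusted threshold in any comparison. All kept probes passed it at 0.596% between vincristine and control rats, 0.312% between opioid and saline rats, 0.298% in the test of any difference, 0.0142% between vincristine-morphine and vincristine-saline rats and at most 0.0284% elsewhere. At an unadjusted p below 0.05 in that model stood 16 of 400 member tests (4%), against 6.1% of all.

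The precision limits what such counts can hide. Between vincristine and control rats, the 95% intervals of all 40 members lay within 1.5-fold in either direction, the widest bounds being -0.37 and 0.32 on the log2 scale. The same was true of all 40 between opioid and saline rats, with bounds of -0.36 and 0.38. Where 4 rats were set against 4, all 40 intervals stayed within 2-fold and 36 to 39 of them within 1.5-fold. For the interaction, 39 intervals stayed within 2-fold and 24 within 1.5-fold. These intervals bound the normalized signal, which near background can understate a difference in RNA. That applies to the 10 members not detected on all 24 arrays. In these log2 units the median member difference between vincristine and control rats was 0.0063, with 21 members higher and 19 lower, beside a median of -0.00089 over all kept probes.

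**Figure D2:**
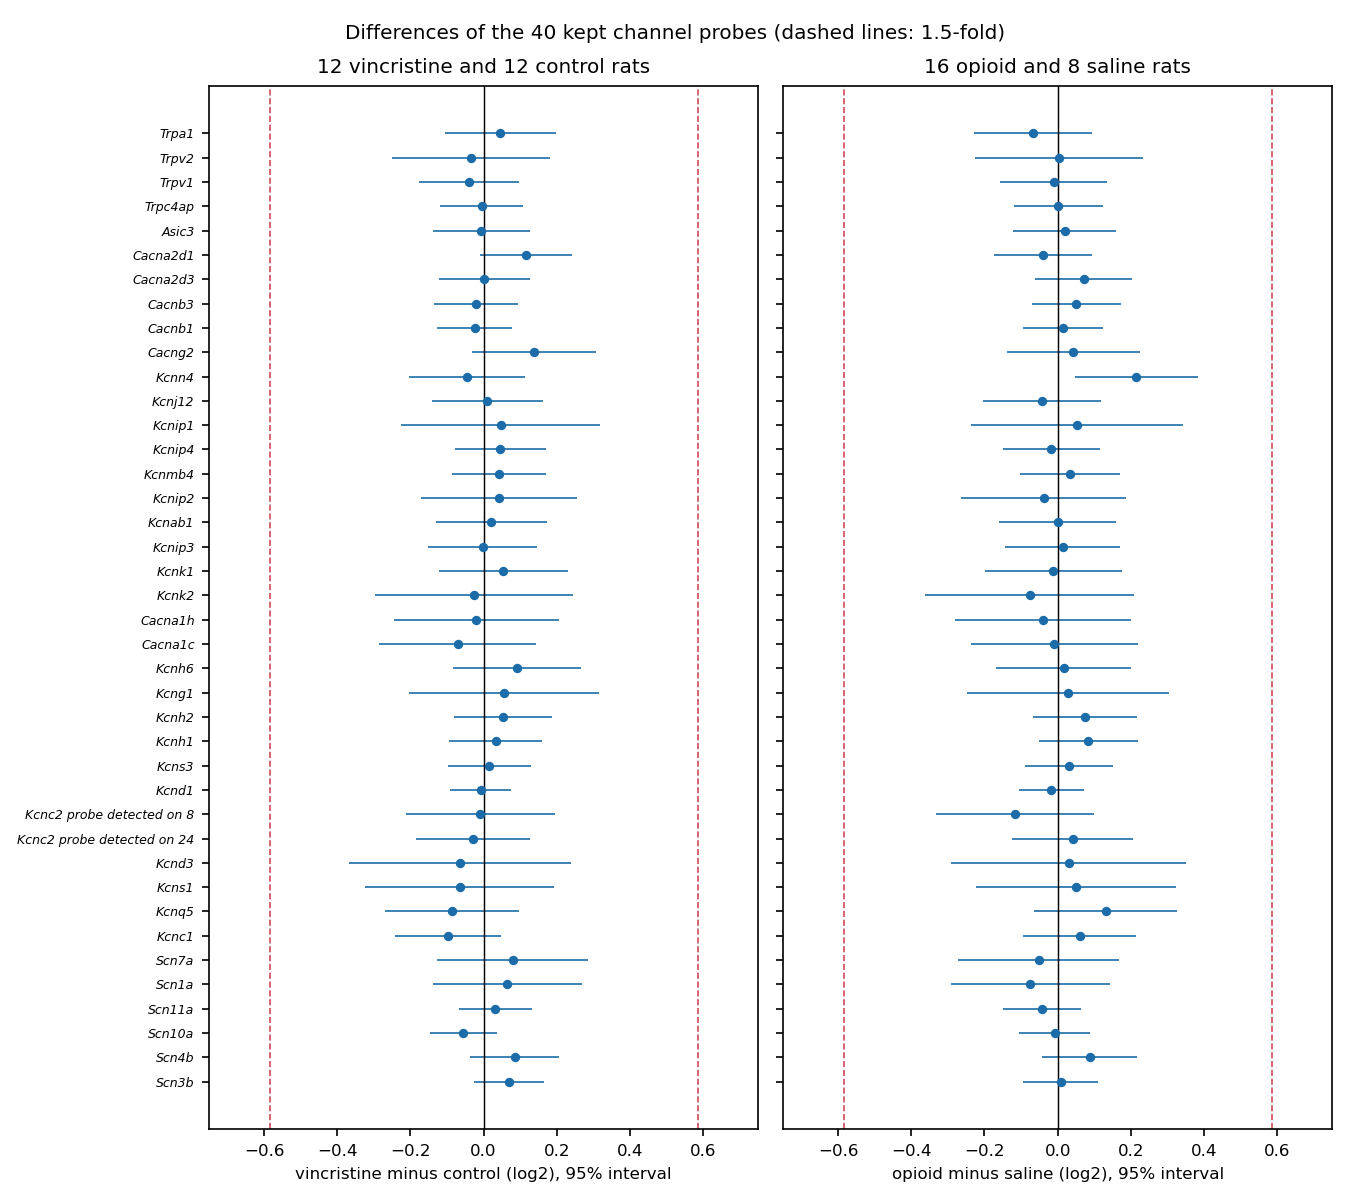
Difference (log2) of each of the 40 kept channel probes, with its 95% interval, between 12 vincristine and 12 control rats (left) and between 16 opioid and 8 saline rats (right); dashed lines mark 1.5-fold. All intervals stay inside the dashed lines, and on the right that of Kcnn4 lies above 0, from 0.05 to 0.38.

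The sodium channels of nociceptors varied little between groups. Scn10a read 12.84, 12.81, 12.80 and 12.75 (log2 normalized signal) in vincristine-morphine rats 1 to 4, 12.74, 12.97, 12.88 and 12.92 in vincristine-oxycodone rats and 12.84, 12.73, 12.83 and 12.93 in vincristine-saline rats. In control rats it read 12.87, 12.89, 12.71 and 12.80 with morphine, 12.84, 12.94, 12.97 and 13.04 with oxycodone and 12.73, 13.09, 12.82 and 12.99 with saline. The 24 values thus lay between 12.71 and 13.09, and the groups of each comparison overlapped. Scn10a differed most, among the comparisons fitted, between saline-morphine and saline-oxycodone rats, by -0.13 ± 0.08 (SE, n = 4 each), with an exact permutation p of 0.086 and a limma adjusted p of 1; the sign of this difference turned under median centring, as did that of saline-morphine and saline-saline rats (-0.09). Scn11a ranged over 10.75 to 11.11 (median 10.94) in vincristine rats and 10.79 to 11.11 (median 10.89) in control rats. Scn1a, which encodes Nav1.1, ranged from 8.56 to 9.47 over all arrays.

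Scn7a encodes Nax, a sodium-sensing channel that does not open with voltage. It read 10.11, 9.60, 9.71 and 9.34 in saline-morphine rats, against 10.26, 9.85, 9.98 and 9.73 in saline-saline rats. Saline-morphine was the lower in each of the 4 sets, but the groups overlapped (difference -0.26 ± 0.17, limma p 0.14, or 0.010 with the set block, where the adjusted p was 0.72). Leaving out 1 saline-morphine rat moved it to -0.15 (rat 4) or -0.40 (rat 1). Beta subunits anchor the sodium channel and tune its gating. Scn3b spanned 10.43 to 10.81 (median 10.67) in vincristine rats and 10.40 to 10.74 (median 10.60) in control rats, a difference of 0.07 ± 0.05. Scn4b spanned 10.90 to 11.38 (median 11.18) in vincristine rats and 10.89 to 11.32 (median 11.07) in control rats, a difference of 0.09 ± 0.06, or 0.06 without vincristine-saline rat 1. Both were higher in vincristine rats in all 4 sets, with limma adjusted p of 1.00 and with ranges that overlap almost completely. Of all 40 members, 5 were higher in vincristine rats in every set and 1 was lower, which makes 15.0% in a single direction against 14.4% of all kept probes.

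**Figure D3:**
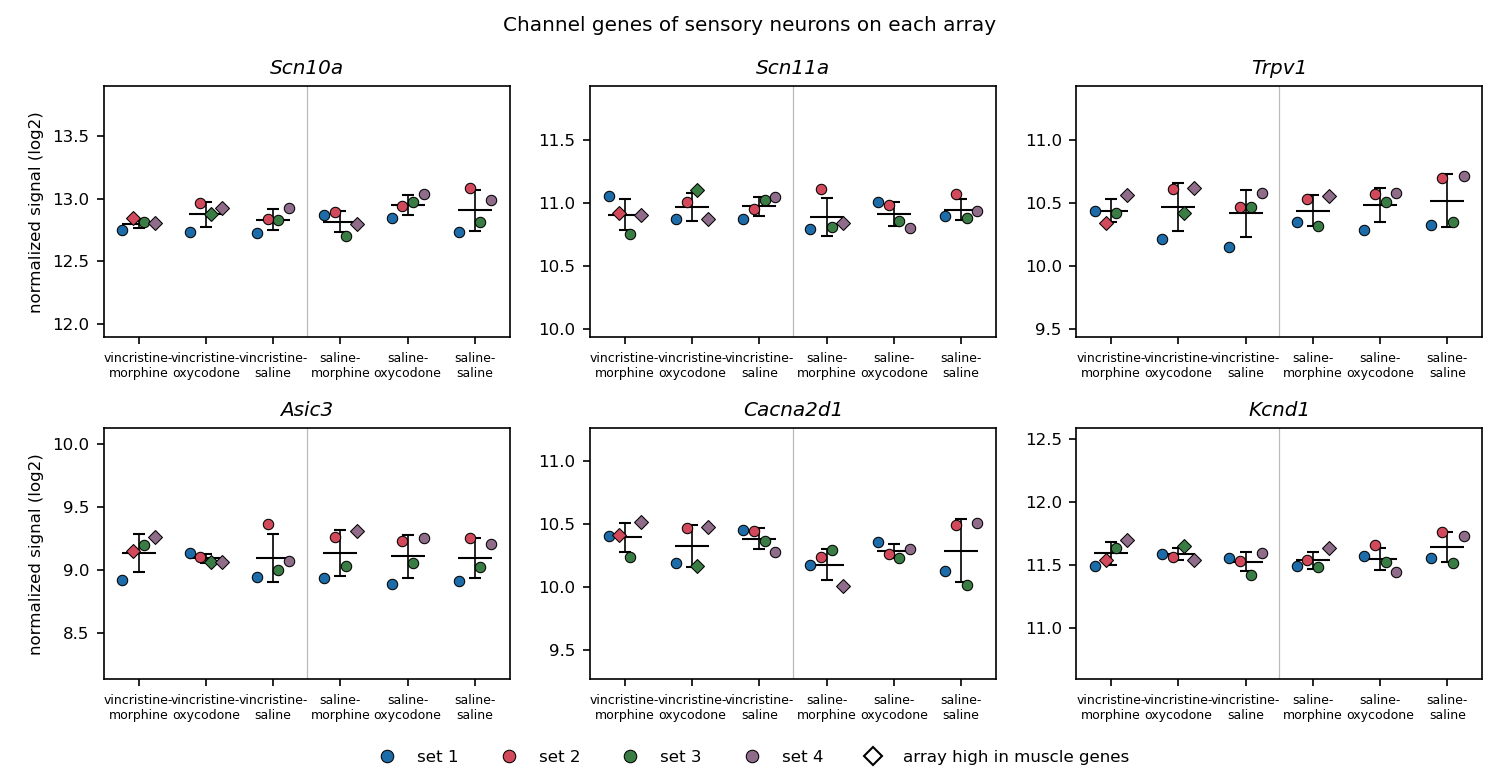
Normalized signal (log2) of 6 channel genes on each array, by group, with the group mean and SD (bars, n = 4); colour marks the set and diamonds the 5 arrays high in muscle genes. The y axes span 2 log2 units each; Scn10a lies between 12.71 and 13.09, and the groups of each comparison overlap.

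The calcium channel members gave the smallest p of the vincristine comparison. Cacna2d1 read 10.41, 10.24, 10.52 and 10.41 in vincristine-morphine rats, 10.19, 10.47, 10.16 and 10.47 in vincristine-oxycodone rats and 10.44, 10.45, 10.36 and 10.27 in vincristine-saline rats. In control rats it read 10.17, 10.23, 10.29 and 10.01 with morphine, 10.36, 10.26, 10.23 and 10.30 with oxycodone and 10.13, 10.49, 10.02 and 10.51 with saline. The highest values of both were thus nearly equal (10.52 in vincristine and 10.51 in control rats), and the control rats reached further down. Vincristine rats were higher by 0.12 ± 0.06 (SE, n = 12 each; 95% interval -0.01 to 0.24), in all 4 sets, with a limma p of 0.068 and an adjusted p of 1.00. With the set block its p was 0.047, the only member below 0.05 there (6.62% of all kept probes were), and its adjusted p was 0.74. The most negative member of this comparison, and the remaining one of the 5 of smallest p, was the fast-gating potassium channel Kcnc1. It spanned 6.67 to 7.05 (median 6.86) in vincristine rats and 6.65 to 7.32 (median 6.99) in control rats, a difference of -0.10 ± 0.07 (limma p 0.18, adjusted p 1.00), or -0.06 without saline-oxycodone rat 4. Between vincristine-saline and saline-saline rats the 5 members of smallest p were Kcnd1 (-0.12 ± 0.07), Cacnb1 (-0.11 ± 0.09), Trpa1 (0.14 ± 0.13), Scn4b (0.11 ± 0.10) and Cacna1c (-0.19 ± 0.18), each with a limma adjusted p of 1.00. All 5 moved by over 1.5 times when 1 array was left out: without saline-saline rat 2 they were -0.08 for Kcnd1, -0.04 for Cacnb1, 0.24 for Trpa1 and -0.08 for Cacna1c, and Scn4b was 0.02 without vincristine-saline rat 1.

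Cacng2, or stargazin, a gamma subunit that also carries AMPA receptors to synapses, spanned 8.68 to 9.33 (median 9.05) in vincristine rats and 8.55 to 9.20 (median 8.83) in control rats. Its difference of 0.14 ± 0.08 was the largest of any member in that comparison. Cacna1c, the L-type Cav1.2, read 7.37, 7.31, 7.46 and 7.22 in vincristine-morphine rats and 8.38, 7.56, 7.25 and 7.47 in vincristine-oxycodone rats. The difference of -0.32 ± 0.18 rested on vincristine-oxycodone rat 1, without which it was -0.08. Cacna1h, the T-type Cav3.2 of sensory neurons, ranged from 6.15 to 7.08 and the beta subunit Cacnb3 from 11.24 to 11.70. The gamma1 subunit of skeletal muscle, Cacng1, passed the detection cutoff on no array. It nonetheless read 5.11 and 5.07 on vincristine-morphine arrays 3 and 1 and 5.50 on saline-morphine array 4, the 3 highest in muscle genes, and 4.28 to 4.62 on all others. Scn4a, Cacng6 and Kcna7, other channel genes of muscle, showed no such rise and stayed within 4.36 to 4.91, 4.22 to 4.37 and 4.25 to 4.45.

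Among potassium channels, Kcnn4 had the smallest p of the opioid comparisons. This gene encodes KCa3.1, an intermediate-conductance channel opened by calcium, known from immune and red blood cells. It read 7.47, 7.21, 7.55 and 7.23 in vincristine-morphine rats and 7.05, 6.98, 7.36 and 7.31 in vincristine-oxycodone rats, against 7.34, 7.14, 6.86 and 6.87 in vincristine-saline rats. Control rats had 7.01, 7.30, 7.40 and 7.58 with morphine and 7.32, 7.12, 7.26 and 7.53 with oxycodone, against 7.20, 7.06, 7.20 and 6.95 with saline. Opioid rats were higher by 0.22 ± 0.08 (SE, n = 16 and 8; limma p 0.015, adjusted p 1; 2.9% of all kept probes had an unadjusted p below 0.05). The 5 muscle-high arrays averaged 7.45, and without them the difference was 0.12 (p 0.16). The part of muscle RNA in this difference was not tested beyond that. Red blood cell RNA also differed between arrays, the mean of 5 kept markers lying between 9.9 and 12.75 (log2). Its part in the Kcnn4 difference was not tested. In vincristine rats alone, morphine exceeded saline by 0.31 ± 0.13 (limma p 0.027, 1.82% of all kept probes below 0.05; exact permutation p 0.11), and by 0.17 without the muscle-high arrays.

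Kcnq5 encodes a subunit of the M current, which damps repetitive firing; it was detected on 10 arrays. It read 6.74, 6.74, 6.70 and 6.57 in saline-morphine rats, 6.82, 6.32, 6.47 and 6.30 in saline-oxycodone rats and 6.73, 6.40, 6.01 and 6.27 in saline-saline rats. Morphine exceeded saline by 0.34 ± 0.15 in control rats (limma p 0.040, 2.09% of all below 0.05; exact permutation p 0.086), with saline-morphine the higher in all 4 sets and a p of 0.0036 with the set block (adjusted p 0.46). The difference was 0.22 without saline-saline rat 3. The probe passed the cutoff on all 4 saline-morphine arrays, 1 saline-oxycodone array and 1 saline-saline array. In vincristine rats the values overlapped throughout, 6.17 to 6.69 with morphine and 6.20 to 6.81 with saline.

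Kcnk1, the two-pore channel TWIK-1, had the smallest p of the interaction. It read 10.60, 10.41, 10.87 and 10.75 in vincristine-morphine rats and 11.30, 10.76, 10.84 and 10.74 in vincristine-oxycodone rats, while control rats had 10.69, 10.82, 10.90 and 10.93 with morphine and 11.04, 10.71, 10.49 and 10.30 with oxycodone. Morphine lay below oxycodone by 0.25 ± 0.15 in vincristine rats and above it by 0.20 ± 0.15 in control rats; these differ by -0.45 ± 0.21 (limma p 0.041, adjusted p 1.00; 2.98% of all below 0.05). Single rats moved both parts, since the first was -0.12 without vincristine-oxycodone rat 1 and the second 0.09 without saline-oxycodone rat 4 or 0.34 without saline-oxycodone rat 1. Kcng1, a silent subunit that modifies Kv2 channels, went the other way, with differences of 0.35 ± 0.22 and -0.25 ± 0.22 (interaction 0.60 ± 0.31, limma p 0.064). They were 0.22 without vincristine-morphine rat 2, and -0.14 or -0.48 without saline-oxycodone rat 3 or 1. Its 95% interval, -0.04 to 1.24, reached the highest bound of any member. Kcnd1, an A-type channel gene, was the steadiest of the 40, at 11.42 to 11.76 on all 24 arrays. Kcnj12, the sole kept inward rectifier, ranged from 6.44 to 7.25, and Kcnj3, a subunit of the channels that opioid receptors open, was not kept.

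TRP and acid-sensing channels gave the one pair of groups without overlap. Trpa1, the receptor of mustard oil and other irritants, read 6.75, 6.72, 6.55 and 6.41 in vincristine-morphine rats, 6.54, 6.99, 6.83 and 6.95 in vincristine-oxycodone rats and 6.94, 6.76, 6.83 and 6.90 in vincristine-saline rats. Its probe was detected on 22 of 24 arrays, so its lowest values lay near the detection cutoff. Every vincristine-morphine rat lay below every vincristine-saline rat, though the nearest were 6.75 and 6.76. This was the only one of 280 member comparisons of 4 rats with 4 that did not overlap (0.357%, against 1.15% of all kept probes over the same comparisons and 1.04% in this one). The difference was -0.25 ± 0.13, with a limma p of 0.062, an adjusted p of 1 and an exact permutation p of 0.029, the smallest that 4 against 4 allows. Without overlap, Trpa1 was necessarily lower with morphine in all 4 sets, so that direction adds nothing. Its limma p with the set block was 0.018 (adjusted p 0.98). In control rats its 4 values with morphine, 6.67 to 6.88, lay within the range of those with saline.

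**Figure D4:**
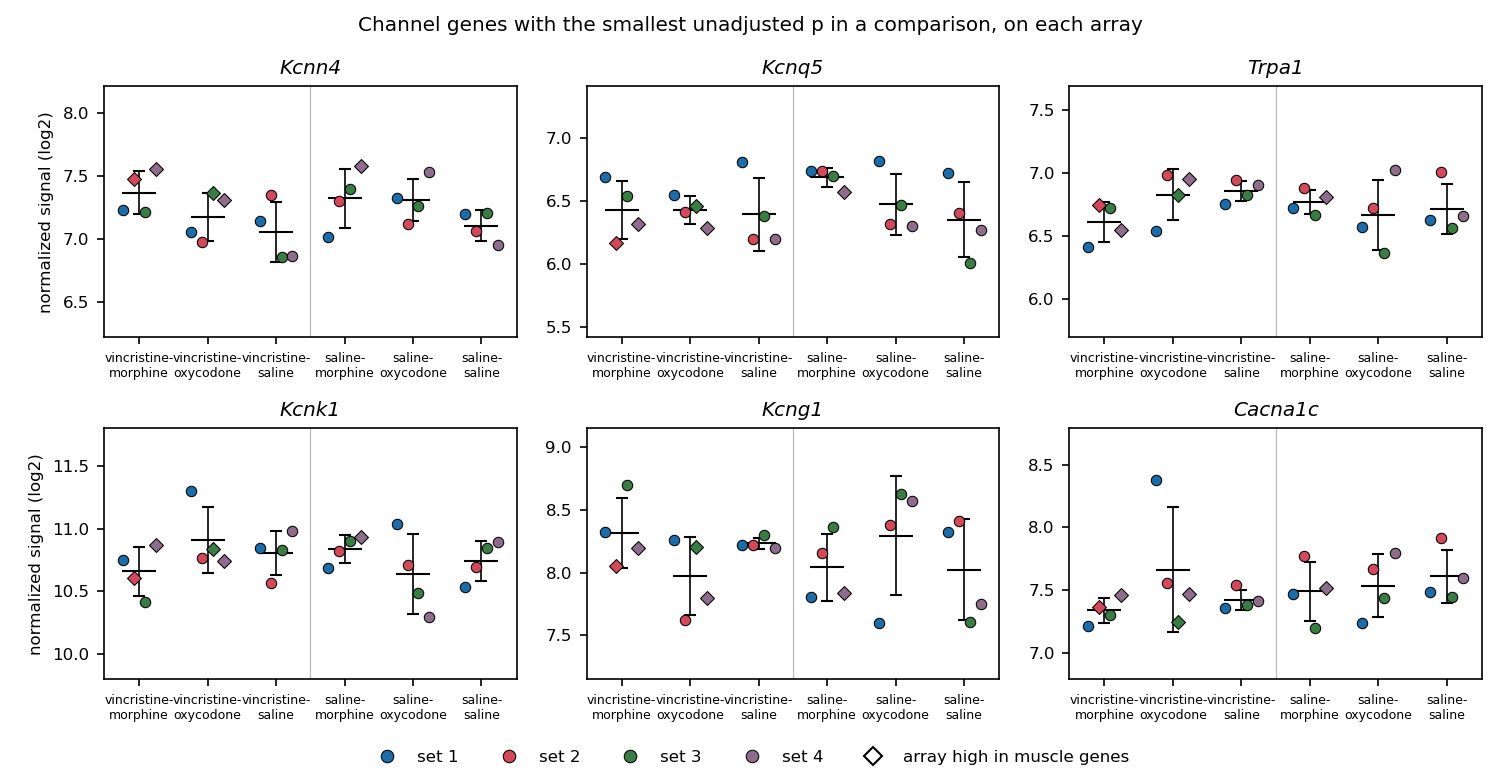
Normalized signal (log2) on each array of 6 channel genes among those with the smallest unadjusted p in a comparison, by group, with mean and SD (bars, n = 4), colours and diamonds as for the nociceptor channels. Kcnn4 reached 7.55 and 7.58 on muscle-high arrays, and in Cacna1c a single vincristine-oxycodone rat stands at 8.38.

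Trpv1 spanned 10.15 to 10.62 (median 10.45) in vincristine rats and 10.29 to 10.71 (median 10.52) in control rats, a difference of -0.04 with a 95% interval of -0.18 to 0.10. With opioids it spanned 10.22 to 10.62, against 10.15 to 10.71 without. Asic3, the proton-gated channel of muscle and skin afferents, spanned 8.92 to 9.37 (median 9.09) in vincristine rats and 8.89 to 9.31 (median 9.13) in control rats. Its group means differed by at most 0.04. Trpv2, a channel of large sensory neurons, ranged from 7.51 to 8.18; its group means differed by at most 0.09 and its set means by 0.51.

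Further members were named as the 5 of smallest p in a comparison, none of them past the adjusted threshold. In the limma fit, the members of smallest p after Kcnn4 and Kcnq5 between opioid and saline rats were Scn4b (0.09 ± 0.06), the ether-a-go-go channel Kcnh1 (0.08 ± 0.07) and the Kcnc2 probe detected on 8 arrays (-0.12 ± 0.10). Between vincristine-morphine and vincristine-saline rats they were, after Kcnn4 and Trpa1, the auxiliary subunit Kcnab1 (0.15 ± 0.13), Cacnb1 (0.10 ± 0.09) and Cacng2 (0.14 ± 0.14). Between vincristine-oxycodone and vincristine-saline rats, Cacna1c (0.24 ± 0.18), Cacna2d3 (0.13 ± 0.10), the cardiac and neuronal channel Kcnh2 (0.14 ± 0.11), Kcng1 (-0.26 ± 0.22) and Kcnn4 (0.12 ± 0.13) led, and the Cacna1c difference was 4.6e-05 without vincristine-oxycodone rat 1. The Cacna2d3 probe was detected on exactly 4 arrays, 2 vincristine-oxycodone, 1 saline-morphine, 1 saline-oxycodone and 0 of 8 without opioid, so it was tested only because of arrays of opioid rats. Between saline-oxycodone and saline-saline rats these were Kcnn4 (0.21 ± 0.13), Scn4b (0.16 ± 0.10), Kcnd1 (-0.09 ± 0.07), Kcnh1 (0.14 ± 0.11) and Kcng1 (0.27 ± 0.22). Between saline-morphine and saline-saline rats, Kcnn4 (0.22 ± 0.13) and Kcnd1 (-0.10 ± 0.07) stood beside Kcnq5, Scn7a and Scn10a; the sign of the Kcnd1 difference turned under median centring. Without the muscle-high arrays the sign of the Kcnn4 difference between vincristine-oxycodone and vincristine-saline rats turned (-0.04). For morphine against oxycodone, Trpa1 (-0.22 ± 0.13) and Kcnab1 (0.20 ± 0.13) followed in vincristine rats, and Kcnq5 (0.21 ± 0.15) and Kcnip2 (-0.20 ± 0.18) in control rats. In the interaction, Trpa1 (-0.32 ± 0.18), Kcnab1 (0.31 ± 0.18) and Cacna2d1 (0.18 ± 0.15) followed Kcnk1 and Kcng1. The signs of the Kcnip2 difference and of the Cacna2d1 interaction turned under median centring. The 95% interval of each value just given covered 0. Most named differences were moved by a single rat: 37 of 50 moved by over 1.5 times with 1 array left out.

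In the channel genes, as in all kept probes, the sets took a larger share of the spread than the treatment groups did. The set accounted for a median of 49.4% of a member's variation over the 24 arrays and the group for 10.8%, beside 44.4% and 11.7% over all kept probes, and the set's share was the larger in 34 of 40 members (85.0%, against 79.8% of all kept probes). Set 1 held the extreme mean for 33 of 40 members (82.5%, near the 79.9% of all kept probes), the highest for 11 and the lowest for 22. Kcnip1, a calcium-binding partner of Kv4 channels, averaged 7.31 in set 1 and 6.58 to 6.82 in the others, and the set took 86.6% of its variation. Trpv2, Kcnk2 (TREK-1, a stretch- and heat-gated two-pore channel), Kcnd3 and Kcns1 were likewise highest in set 1, by set ranges of 0.51 to 0.73. Kcnip2, Kcnh1, Cacnb3 and Trpv1 were lowest there. The group's share was largest in Kcnn4 (33.6%), Scn10a (27.3%), Cacna2d1 (24.3%) and Scn4b (24.1%). In the limma test of any difference among 6 groups their unadjusted p were 0.14, 0.38, 0.37 and 0.38. Groups of 4 arrays take some share without any effect of treatment, and that part was not subtracted.

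**Figure D5:**
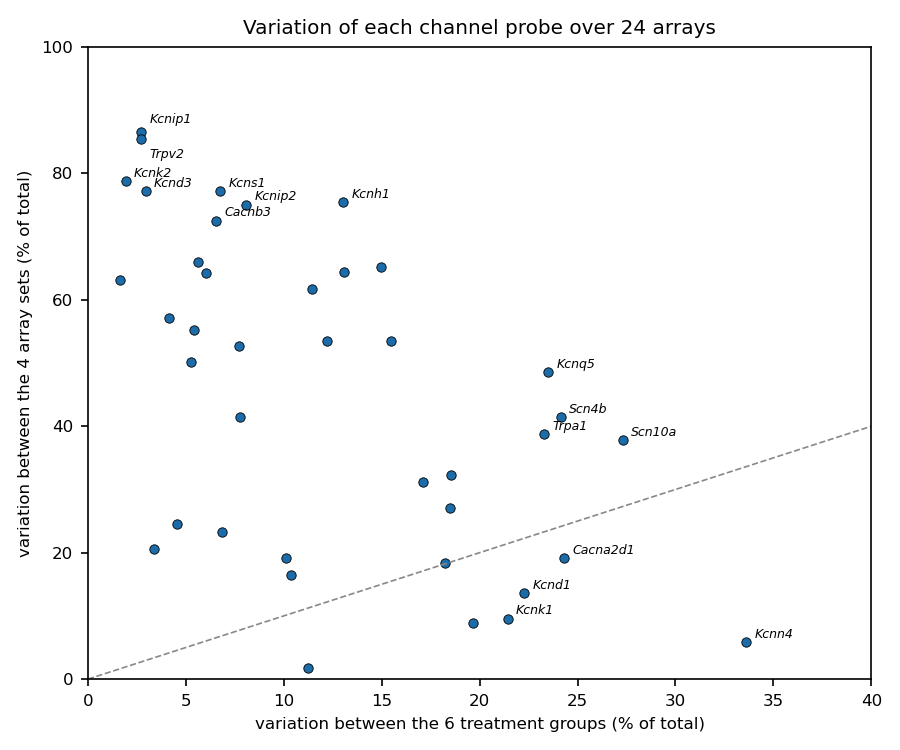
Share of each kept channel probe's variation over 24 arrays that lies between the 6 treatment groups (x, percent) and between the 4 sets (y, percent); the dashed line marks equal shares. In 34 of 40 probes the set's share is the larger, with Kcnip1 at 86.6%, while Kcnn4 has the largest group share, 33.6%.

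Genes that work with these channels gave no call either. Of 36 listed partners and regulators, 27 were on the array and 19 were kept, and 0 passed an adjusted p of 0.05 in any comparison in either direction. Of 41 other ion channels and pumps, 31 were on the array, 18 were kept and 0 passed. At an unadjusted p below 0.05 stood 3 of the 370 tests of these genes (0.811%, below the 2.32% of all tests), which are given here as values only. Stim1, the calcium sensor of the endoplasmic reticulum, differed by -0.22 ± 0.10 between saline-morphine and saline-oxycodone rats (limma p 0.045). P2rx5, an ATP-gated channel, differed by 0.50 ± 0.22 between saline-morphine and saline-saline rats (limma p 0.034), and Atp1b3, a sodium pump subunit, by -0.09 ± 0.04 between vincristine and control rats (limma p 0.039).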

How the data were processed

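The authors deposited, for 24 arrays of individual rats, the scanner signal intensity and detection p-value of each of 22517 probes, and log2 values, which matched quantile-normalized log2 signals without background correction. The scanner software and its version are not given in the sources used here. The neqc function of limma 3.58.1 (R 4.3.3; tables were read with data.table, version 1.17.8) corrected the background and set equal quantiles, with an offset of 16. The detection p had to be 0.0005 or less on 4 arrays or more, which 7043 probes met. One linear model of 6 group means (18 residual degrees of freedom, empirical Bayes) gave all comparisons, with Benjamini-Hochberg adjustment over the kept probes of each; single genes between groups of 4 also had a two-sided exact permutation test (70 regroupings). A level of 1 probe was not set against that of another. The number of arrays limits the precision. The fitting script was tested on simulated data.

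Symbols come from the platform annotation, which named 13787 probes and left 8730 unnamed; all 134 channel genes matched RefSeq by gene identifier. Named were, for each comparison, the 5 members of smallest p, since none passed, and channels known for roles in sensory neurons, glia or muscle. The members and lists were chosen with earlier results of these data known. Alternatives were the background correction, centring, detection filter, variance model, array weights, authors' values, blocks, the methods' own tests, each array left out, and, chosen after seeing the data, the arrays high in muscle genes left out.

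Replicate numbers did not pair the arrays: deviations of same-numbered arrays from their group means correlated by 0.0447 on average, and over 0.1 in 30 of 60 pairs. Arrays of 1 set correlated by 0.412, over 0.1 in 53 of 60 pairs.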

Additional observations from a re-analysis of the deposited data

Results flagged for a closer look

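The 240 groups of 4 arrays were the 40 kept probes, each in the same 6 treatment groups. In 13 of these 240, 1 array's channel signal stood apart from the other 3. The ratio of this gap to the group's range exceeded Dixon's critical value for 4 samples. Chance alone gives about 1 in 20 groups, and here it was 5.42%. Of the 13 values that stood apart, 10 lay on arrays of set 1, and some arrays were flagged for several probes.

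Kcnip3, a calcium-binding partner of Kv4 channels also known as DREAM, stood apart in 3 groups. It was low in vincristine-oxycodone rat 1 (6.53, others 6.77 to 6.80, ratio 0.888) and in saline-oxycodone rat 1 (6.33, others 6.73 to 6.75, ratio 0.945), and high in saline-saline rat 3 (6.86, others 6.61 to 6.63, ratio 0.927). Kcnmb4, a beta subunit of the large calcium-activated channel, was high in vincristine-oxycodone rat 1 (6.91, ratio 0.893) and in vincristine-saline rat 3 (6.90, ratio 0.969). Saline-saline rat 1 was high in Kcnip1 (7.36, ratio 0.842) and Kcns1 (7.78, ratio 0.901) and low in Kcnh1 (7.95, ratio 0.919). Kcnd3, an A-type potassium channel, was high in vincristine-morphine rat 4 (9.01, others 8.06 to 8.10, ratio 0.955). Kcns3 was low in saline-morphine rat 1 (9.85, ratio 0.958), and Cacna1h in saline-oxycodone rat 1 (6.57, others 6.83, ratio 0.973). The sodium channel Scn1a was high in vincristine-saline rat 2 (9.40, others 8.82 to 8.86, ratio 0.931), and Scn11a in saline-morphine rat 2 (11.11, others 10.79 to 10.84, ratio 0.858).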

How the results depend on the processing

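The count of channel members past an adjusted p of 0.05 was 0 in each of the 11 comparisons. It was also 0 in all 396 values of it under the alternatives. Among these were the replicate block, which left 0 members called in every comparison, the set block and each array left out (0 to 0). The methods' own tests, without adjustment, at the significance level given there also called 0 members. They covered vincristine against control and morphine against oxycodone in vincristine and in control rats. In the limma fit, an unadjusted p below 0.05 was likewise met by 0 members in these comparisons. Of all kept probes, 2.77%, 0.753% and 3.81% met it there, so a count of 0 among 40 members says little. The filter set how many members were tested: 76 with the looser detection cutoff, 30 with detection on all 24 arrays and 139 with no filter. Over all kept probes the calls did move. With the set block they were 42 in place of 14 between vincristine and control rats, 22 in place of 8 between opioid and saline rats and 21 in place of 10 for any difference. Without the arrays high in muscle genes these 3 counts were 6, 1 and 4.

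Median centring in place of quantiles shifted the median of all kept probes by 0.19 between saline-morphine and saline-oxycodone rats, by 0.12 between saline-morphine and saline-saline rats and by -0.19 in the interaction. With it Scn10a turned to 0.0265 and 0.0484 in the first and second of these, Kcnip2 to 0.0036 in the first, Kcnd1 to 0.0367 in the second and Cacna2d1 to -0.0099 in the interaction. Without the arrays high in muscle genes, Kcnn4 turned to -0.0384 between vincristine-oxycodone and vincristine-saline rats. Of 1200 values of a named gene with 1 array left out, 0 changed sign, but 70 (5.83%) moved by over 1.5 times, and these touched 37 of the 50 named differences. An array of a group outside a comparison cannot move that comparison's difference. Many of the 1200 values were therefore fixed in advance, and the 5.83% understates how often an array of the compared groups moved a difference.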
